A study of Saccharomyces cerevisiae W303 with 4 samples.

Results

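Divergent intergenic regions are the stretches of DNA between neighbouring genes that are transcribed away from each other, so that both genes start at the region and share it as upstream DNA. They were taken here as nuclear intervals between neighbouring protein-coding sequences (R64 annotation, the sequence of sacCer3) with the left gene on the minus strand and the right gene on the plus strand. A minimum length of 100 bp was set, and regions that hold a tRNA gene, a long terminal repeat (LTR), a Ty element, a centromere or rDNA were left out. This gave 1392 regions of 5874 intervals in all, with a median length of 491 bp and 886.586 kb together, or 7.34% of the nuclear genome. The rule used strand, length and annotation, and no measured value.

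The measurements came from ChIP-seq of budding yeast of the W303 background whose Zuo1 carries a Myc tag at its C-terminus. The reference sequence is that of another laboratory strain, and differences between the strains were not analysed here. All cells were of this strain, had grown at 30 °C for 5 h and were crosslinked at an OD of 0.6 with 1% formaldehyde. There were 2 libraries of DNA precipitated with an antibody to Myc (IP) and 2 libraries of input DNA, and the authors pooled the libraries into 1 list of 1594 peaks, of which 1543 were nuclear. A strain with no tag was not analysed here, and the pooled list has no spread between replicates, so that counts are set beside each other below with no test over samples.

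In the compact yeast genome, a divergent region often holds the promoters of both genes, with transcription factor sites, a stretch low in nucleosomes and a start site on either side. Shared regions of this kind are known from GAL1 and GAL10, from the histone gene pairs and from several ribosomal protein genes. Zuo1 is a J-domain chaperone that works at the ribosome in the ribosome-associated complex and that the study examined as a binder of G-quadruplex (G4) structures, which single-stranded DNA with runs of G can fold into. The question here was how often, how strongly and at which sequences Zuo1-Myc peaks had their summit, the base of highest enrichment, in divergent regions.

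The following sequences are examples from regions with a summit, chosen to show G4 motifs, GC-rich summits without a motif and an AT-rich summit. The first set gives G4 motifs, defined as 4 or more tracts of at least 3 G separated by 1 to 25 bases on either strand. They lie at or beside the summit in 4 regions of the inner chromosomes. The motif in YFL064C-COS4 is shown because the same 50 bases lie in YRF1-6-COS1 on another chromosome (chrXIV:6366-6415), and it ends 269 bp from the summit in YFL064C-COS4 and 230 bp from that in YRF1-6-COS1. All are sacCer3, plus strand, with the G tracts in capitals (as C where the motif is on the minus strand).
TPS1-MEO1, chrII:490625-490750: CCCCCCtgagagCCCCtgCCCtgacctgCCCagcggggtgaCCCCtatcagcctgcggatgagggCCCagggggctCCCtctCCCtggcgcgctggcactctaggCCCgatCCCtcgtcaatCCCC
PMP2-GTT3, chrV:123285-123368: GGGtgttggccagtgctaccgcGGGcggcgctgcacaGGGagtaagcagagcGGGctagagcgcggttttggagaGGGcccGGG
SOD1-ADO1, chrX:623197-623222: GGGGtGGGtgcccctaaGGGagcGGG
DLD1-PAR32, chrIV:147756-147845: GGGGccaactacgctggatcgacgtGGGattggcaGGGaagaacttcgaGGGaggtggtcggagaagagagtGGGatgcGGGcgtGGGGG
YFL064C-COS4, chrVI:4433-4482: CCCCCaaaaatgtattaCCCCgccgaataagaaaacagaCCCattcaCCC

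The second set gives the 101 bases around a summit (the capital is the summit base), plus strand, in regions without a G4 motif in the peak. DIF1-CAR2 and KTI12-HAP4 were the strongest of these on the inner chromosomes. RPS22A-RPL39 lies between 2 ribosomal protein genes, and SEC59-BUD22 is shown as the contrast, since its summit lay in AT-rich DNA between 2 snoRNA genes. Of the peak of DIF1-CAR2 only 24.3% lay inside the region, and of that of RPS22A-RPL39 32.3%.
DIF1-CAR2, chrXII:1012264-1012364: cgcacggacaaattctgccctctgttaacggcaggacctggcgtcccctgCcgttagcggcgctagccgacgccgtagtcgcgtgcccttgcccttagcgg
KTI12-HAP4, chrXI:231440-231540: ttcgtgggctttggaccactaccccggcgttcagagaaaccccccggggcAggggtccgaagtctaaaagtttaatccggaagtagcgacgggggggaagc
RPS22A-RPL39, chrX:75628-75728: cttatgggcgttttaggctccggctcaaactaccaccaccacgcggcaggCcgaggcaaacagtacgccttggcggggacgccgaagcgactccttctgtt
SEC59-BUD22, chrXIII:298021-298121: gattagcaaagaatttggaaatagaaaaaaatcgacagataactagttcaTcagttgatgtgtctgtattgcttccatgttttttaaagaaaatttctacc

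The third sequence comes from GAL10-GAL1, the best known divergent promoter of yeast. It runs from the first to the last match to the Gal4 element (CGG and CCG with 11 bases between them), which are the 3 stretches in capitals.
GAL10-GAL1, chrII:278568-278621: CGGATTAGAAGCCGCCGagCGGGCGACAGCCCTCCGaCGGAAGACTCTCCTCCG

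Summits were uncommon in divergent regions, and those present were strong. A summit lay in 66 of the 1392 regions (4.74%, 95% Wilson interval 3.74 to 5.99%, which covers the number of regions only), where all places of equal length on the same chromosomes gave 103.8 regions or 7.46%, a ratio of 0.636. Tandem regions, whose genes point the same way, held a summit in 103 of 2603 (3.96%), a ratio of 0.633 to their own places. Convergent regions, where both genes end, held a summit in 66 of 1258 (5.25%), a ratio of 1.34. The 72 divergent summits (60 regions with 1 and 6 with 2) made 8.12 summits per 100 kb, beside 8.10 in tandem regions, 17.0 in convergent regions, 11.1 in coding sequences and 12.8 over the nuclear genome. The divergent density was thus 1.00 times the tandem density.

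The fold enrichment of IP over the local background at the summit, as the peak caller gave it, had a median of 3.08 over the 72 divergent summits (lowest 1.90, highest 11.9). The median was 2.54 in tandem regions, 2.15 in convergent regions and 2.44 over all nuclear peaks. A fold of 3 or more was reached by 37 of 72 divergent summits (51.4%), against 34.5% in tandem regions, 8.82% in convergent regions and 30.0% of all nuclear peaks. Against all places of equal length, the shortfall lay in the weaker peaks. With peaks under 3-fold, 34 divergent regions held a summit where 74.1 were expected (a ratio of 0.459), and with peaks of 3-fold or more 35 held one where 31.6 were expected, a ratio of 1.11. Convergent regions had the opposite order, with ratios of 1.72 for peaks under 3-fold and 0.411 for stronger peaks. These places include the tRNA genes and repeats that the rule leaves out of the regions. Intervals left out for such features or for their length held 270 summits, of which 11.1% reached 3-fold. They therefore raise the number expected for weaker peaks more. Places free of the excluded features gave a ratio of 0.795 over all peaks and were not split by fold.

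Behind a divergent summit stood a median of 117 IP fragments (66 to 449), recovered from the fold and the p-value, over a background of 33.2 to 43.7 fragments. The median over all nuclear peaks was 92 fragments. The peaks were short, with a median of 358.5 bp, and 55 of the 72 lay wholly between the coding sequences. A further 66 regions were overlapped by a peak with its summit elsewhere, and 1260 (90.5%) were touched by no peak. Of all bases in divergent regions, 4.19% lay under a peak, beside 7.72% of coding bases and 8.39% of the nuclear genome. The share with a summit varied between chromosomes from 0 of 21 regions on chromosome I to 5 of 59 (8.47%) on chromosome V, and 15 of the 16 chromosomes had at least 1.

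Short divergent regions held no summit. The shortest region with one was SSC1-TAH11, at 445 bp, and none of the 563 regions under 400 bp held a summit where 19.3 were expected (the interval of a share of 0 reaches to 0.678%). Of the 829 regions of 400 bp or more, 66 (7.96%) held a summit against 84.5 expected, a ratio of 0.781. The places behind these expected numbers include the tRNA genes and repeats left out of the regions. Places free of them raised the ratio over all divergent regions from 0.636 to 0.795 and were not split by length. How much of the shortfall in longer regions comes from these places was thus not tested. Tandem regions under 400 bp held a summit in 13 of 1340, with 47.2 expected, and convergent regions of this length in 38 of 1016, with 28.0 expected. The median length was 962 bp with a summit and 476.5 bp without. The divergent share was highest in the 127 regions of 1200 bp or more, of which 21 (16.5%) held a summit against 26.2 expected. The 3 longest regions, TDA8-YAL064W (7822 bp), YEL073C-RMD6 (6166 bp) and YPL277C-SAM3 (6069 bp), held none, and 57.0%, 52.1% and 43.7% of places of their lengths held one.

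**Figure D1:**
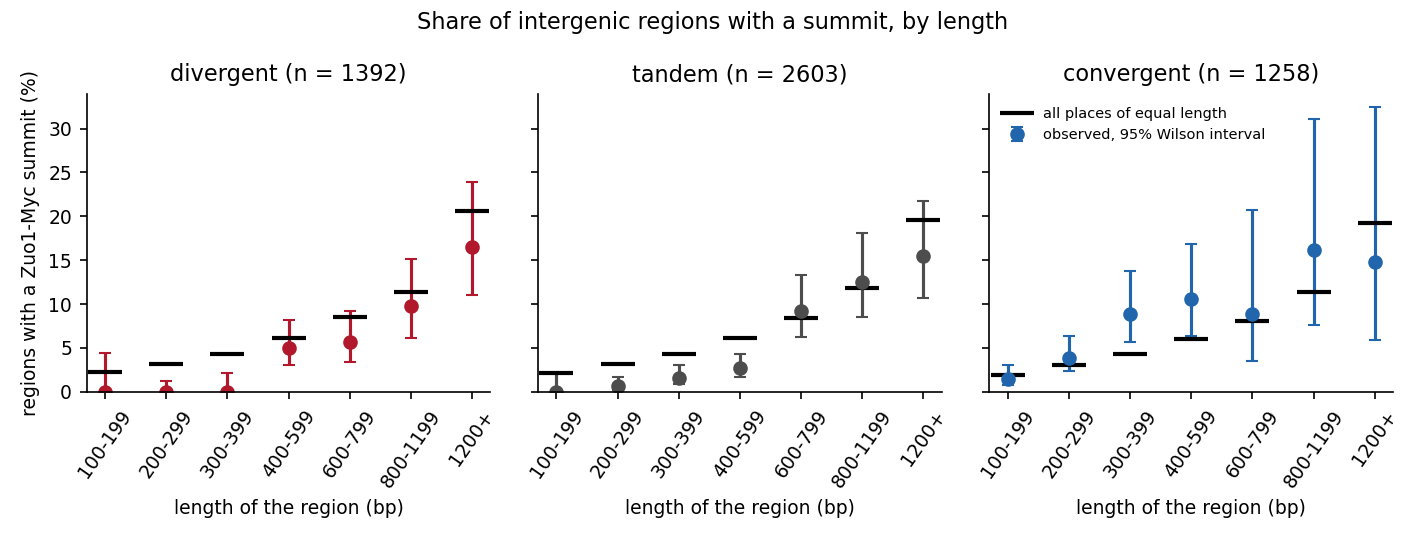
Share of divergent, tandem and convergent regions that held a Zuo1-Myc summit (vertical axis, percent) by length of the region (horizontal axis, bp). Points are observed shares with 95% Wilson intervals, and black bars are the share of all places of equal length. These places include the tRNA genes and repeats left out of the regions. Divergent points stand at 0 in the 3 classes under 400 bp and below the black bar in all 7 classes.

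Over all divergent regions together, summits were sparse next to the start codons. Of the 72 summits, 38 lay in the middle of 3 equal parts of their region, 16 in the left and 18 in the right part, and the nearer start codon was a median of 285.5 bp away (12 to 1063 bp). For densities around start codons, each divergent region was counted from both of its start codons, so the same summit can enter separate bins. Tandem regions were counted from their single start codon. Per length of all divergent regions, with or without a summit, the 100 bp next to a start codon held 1.80 summits per 100 kb. The next 100 bp held 4.39, whereas the bins from 600 to 201 bp upstream held 10.6 to 11.6. Tandem regions had the same dip, with 0.768 and 5.52 in these first 2 bins and 3.84 in the first 100 bp downstream. Downstream of the start codon, the first 100 bp of the gene span held 3.95 per 100 kb and the 3 bins from 100 to 399 bp held 16.3, 20.4 and 19.8. Within 250 bp of a start codon lay 31 summits (43.1%). Of the bases of the regions with a summit, 44.7% lay as near, beside 63.1% of the bases of all divergent regions. Inside the regions with a summit, the share at this distance was thus close to the share of bases.

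**Figure D2:**
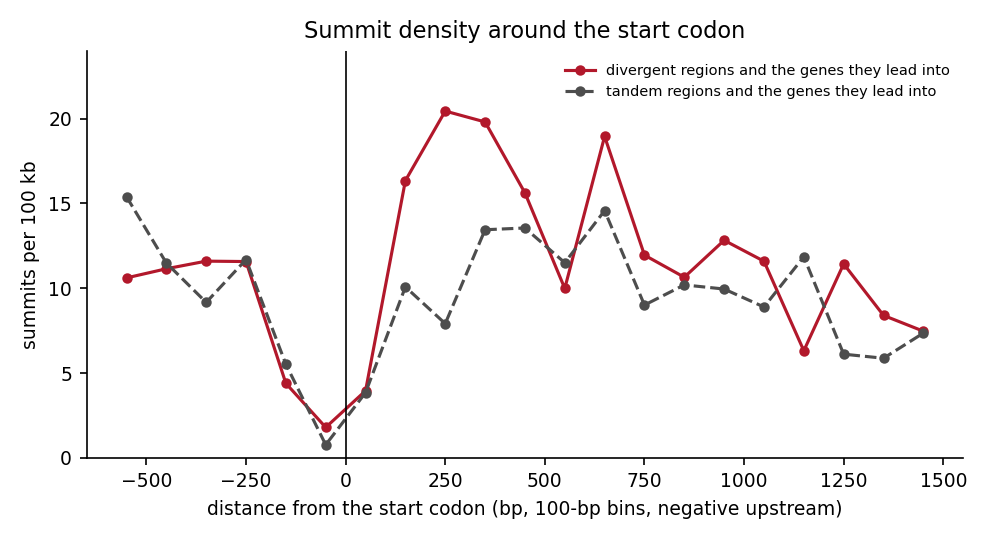
Summits per 100 kb (vertical axis) in 100-bp bins of distance from the start codon (horizontal axis, negative in the intergenic region, positive in the gene span) for divergent and tandem regions. Divergent regions are counted from both of their start codons and tandem regions from their single start codon. The divergent line falls to 1.80 in the bin next to the start codon and rises to 20.4 in the bin from 200 to 299 bp downstream. The tandem line falls to 0.768 in the bin next to the start codon.

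Summits in divergent regions sat in GC-rich DNA. The 101 bp around a summit had a median GC content of 55.4%, whereas the median of all 747386 windows of this size in divergent regions was 36.6%, and 1.46% of these windows reached 55.4%. Of the 401 regions with any window of 50% GC or more, 63 held a summit (15.7%; 46.3 expected by length, a ratio of 1.36). Of the 991 regions without such a window, 3 did (0.303%; 57.5 expected, a ratio of 0.0522). These 3 were SEC59-BUD22 (fold 4.05), MTR2-ASH1 (1.94) and MFB1-GTB1 (1.90). GC content and length go together in part, as regions with a GC-rich window had a median of 785 bp and the others 365 bp; among regions of 400 bp or more with such a window the share was 16.8% (63 of 375), and under 400 bp it was 0 of 26.

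By the GC content of the whole region, the shares with a summit rose from 0.575% in the lowest of 4 equal groups of regions to 1.44%, 3.45% and 13.5% in the highest. Tandem regions at the same GC limits had 2.73%, 2.68%, 2.94% and 12.7%, so the high share in the top group was not particular to divergent regions. Against places on the same chromosome with a GC content within 2 percentage points of the region, the ratio over all divergent regions was 0.775. The GC-rich stretch was local: in 51 of 72 cases the window at the summit ranked in the top 25% of the windows of its own region, and in 31 cases in the top 10%, while 16 summits lay in the lower part of that order, below the middle. Stronger summits were richer in GC, with a median of 60.4% for the 37 summits of 3-fold or more and 52.5% for the 35 weaker ones. Outside the terminal 20 kb of the chromosomes, 27 of 29 summits of 3-fold or more were at 50% GC or more. GC content can change how well fragments are amplified and sequenced, and its part in the fold enrichment was not tested.

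**Figure D3:**
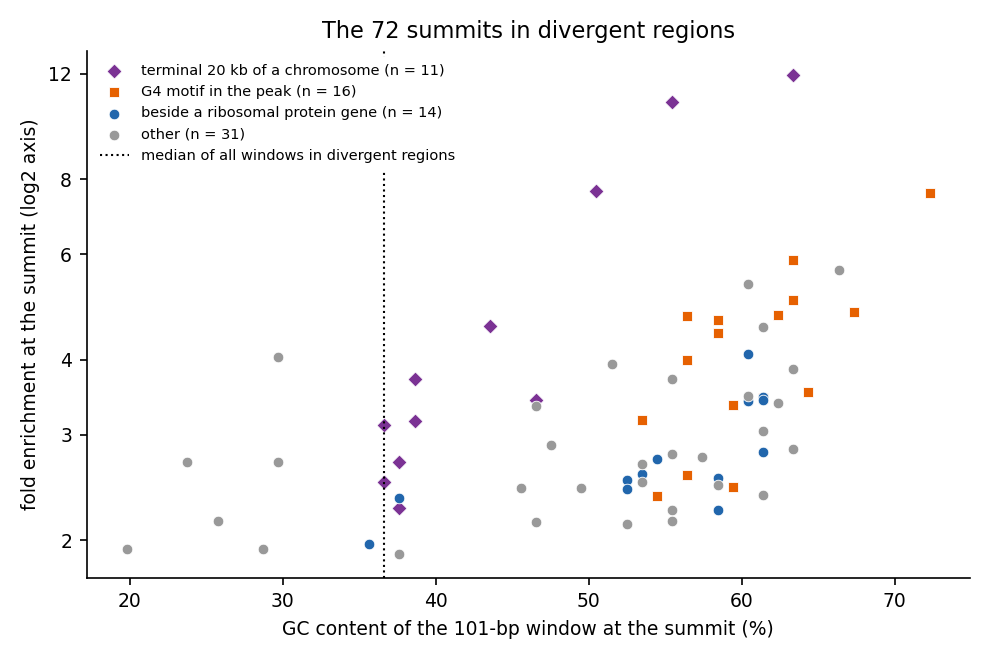
Fold enrichment (vertical axis, log2 scale) against the GC content of the 101-bp window at the summit (horizontal axis, percent) for the 72 summits in divergent regions. Summits are split into the terminal 20 kb of a chromosome (11), then a G4 motif in the peak (16), a ribosomal protein gene beside the region (14) and the others (31); all 16 inner peaks with a G4 motif stand at 53.5% GC or more, right of the dotted median of all windows at 36.6%.

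G4 motifs were more frequent in the regions with a summit. A motif was found in 26 of the 66 regions with a summit (39.4%) and in 59 of the 1326 without (4.45%). All 7 regions with a summit in the terminal 20 kb held one, and without the terminal regions the share was 19 of 59 (32.2%). In the other direction, 26 of the 85 divergent regions with a motif held a summit (30.6%; 10.1 expected by length, a ratio of 2.57), and 40 of the 1307 without a motif did (3.06%; 93.7 expected, a ratio of 0.427). The peaks themselves covered a motif in 22 of 72 cases, with a median fold of 4.50 beside 2.70 for the other 50. In 11 cases the summit base lay inside the motif. The share depended on how a motif was defined: with loops of up to 7 bases it was 9.09% of regions with a summit and 0.377% of the others, and with tracts of 2 G it was 77.3% and 28.9%.

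The motif also goes with GC content, so windows of 50% GC or more were set side by side as well. That limit is a floor, and GC content above it was not matched between summit windows and the others. A G4 motif touched the window in 14 of the 50 summits with 50% GC or more (28.0%) and in 14.5% of all 33440 windows at that GC content. The stress response element AGGGG, searched like the following on both strands, stood in 21 of 72 summit windows (29.2%) and 9.27% of all windows, but in 36% and 26.6% once both were held to 50% GC or more. The Rap1 element (CACCC and ACA with 2 bases between them), bound by the main regulator of ribosomal protein genes, stood in 4 summit windows (5.56% against 0.738% of all windows, and 8% against 2.17% at 50% GC or more). The Reb1 element TTACCCG, the box ACGCGT of cell cycle promoters and a run of 10 A, which are common promoter sequences of yeast, stood in no summit window and in 2.87%, 1.14% and 5.99% of all windows. Of the windows at 50% GC or more they stood in 1.68%, 2.61% and 0.700%, and in none of the 50 summit windows at that GC content. The interval of 0 of 72 reaches to 5.07%, above the shares of TTACCCG and ACGCGT in all windows. The TATA sequence TATAAA stood in 4 (5.56%) against 14.9%, and in none of the 50 GC-rich summit windows against 2.92%. At such low shares a count of 0 in 50 windows says little. These matches describe the letters and not sites bound by a factor.

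The strongest divergent peak outside the chromosome ends was that of TPS1-MEO1 (chrII:490393-490849), upstream of the gene for trehalose-6-phosphate synthase, an enzyme of the stress sugar trehalose. It reached 7.60-fold, with 295 IP fragments over a background of 37.9, at position 490685, 293 bp from the start codon of TPS1 and 165 bp from that of MEO1. The summit lay inside the G4 motif printed first above, which spans 126 bp at 72.2% GC, and the window around it was the most GC-rich of all 72 (72.3%). MAM3-GPD2, beside the gene for glycerol-3-phosphate dehydrogenase 2, followed at 5.86-fold with 222 fragments. DIF1-CAR2, beside the ornithine transaminase of arginine breakdown, had 5.65-fold with 218 fragments and no G4 motif. Its peak was 1648 bp long, and only 24.3% of it lay inside the region, the rest reaching into CAR2. KTI12-HAP4 had 5.34-fold with 201 fragments, 737 bp from the start of HAP4, a gene for an activator of respiratory genes, again with no motif.

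The next inner regions fell between 4.43- and 5.02-fold, and all but TPO2-CBF2 held a G4 motif. RSM7-YJR115W, beside a gene for a protein of the mitochondrial ribosome, had 5.02-fold with 171 fragments. PMP2-GTT3 had 4.81-fold, and its summit lay inside the motif of 6 G tracts printed above, 407 bp from PMP2, which encodes a small regulator of the plasma membrane proton pump. SOD1-ADO1, between the genes of copper-zinc superoxide dismutase and adenosine kinase, had 4.75-fold with its summit 3 bp from the motif. GLY1-IES6, between threonine aldolase and a subunit of the INO80 chromatin remodeller, had 4.73-fold, and DLD1-PAR32, beside D-lactate dehydrogenase, had 4.66-fold with its summit inside the motif. TPO2-CBF2, between a polyamine exporter gene and a gene of the kinetochore, had 4.54-fold and no motif, and YGR117C-RPS23A had 4.43-fold with a motif.

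The 3 highest folds and 1 further region of the top 15 lay near chromosome ends, beside genes of the COS and YRF1 families, which are repeated at many ends. YFL064C-COS4 reached 11.9-fold with 449 IP fragments, the fifth highest of all nuclear peaks (rank 5), YRF1-6-COS1 10.8-fold with 435 fragments, YML133C-COS3 7.64-fold with 267 and YOR394C-A-YRF1-8 4.56-fold with 185. Reads of 64 bp may map to more than 1 end here: of the 64-base words in the 11 peaks of the terminal 20 kb, 15.1 to 100% (median 87.5%) occur more than once in the genome, and in the 61 peaks elsewhere none do. In the terminal 20 kb, 7 of 56 regions held a summit (12.5%), with a median fold of 3.43 over 11 summits. Elsewhere it was 59 of 1336 (4.42%), with a median of 2.85 over 61 summits, and the ratio to places outside the terminal 20 kb was 0.630. The 12.5% and 4.42% were not adjusted for length. The longest divergent regions, TDA8-YAL064W, YEL073C-RMD6 and YPL277C-SAM3, are terminal, so a higher share there is no sign of an excess for their length.

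Of the gene lists examined, that of cytosolic ribosomal proteins had the most divergent regions with a summit. Of the 68 divergent regions beside at least 1 of these genes, 17 held a summit (25%, interval 16.2 to 36.4%), where 6.94 were expected by length (a ratio of 2.45), and of the 1324 regions with no such gene 49 did (3.70%; a ratio of 0.506). Their summits were of moderate strength, with a median fold of 2.66 over 18 summits. The highest were YGR117C-RPS23A (4.43-fold), RPL24B-GPC1 (4.09), SLX8-RPL23B (3.99) and VMA6-RPL6B (3.47), all of them genes for proteins of the small or large ribosomal subunit with another gene on the other side. In 15 regions with a single ribosomal protein gene and a summit, the strongest summit was nearer to that gene in 13, at a median of 228 bp from its start codon (71 to 631 bp), and at a median of 545 bp from that of the partner. Of 5 regions between 2 ribosomal protein genes, 2 held a summit, RPS22A-RPL39 (3.43-fold) and RPL13B-RPS16A (2.73-fold). Ribosomal protein genes are among the most transcribed of growing yeast, and in 52 of the 68 regions such a gene had a summit in its own coding span. This was less frequent in the regions with an intergenic summit than in those without. RPS23A and RPL24B had a coding summit, for example, and RPL23B and RPL6B had none. Whether transcription has a part in these peaks was not tested.

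Other lists were small, and their intervals are wide. Of 21 regions beside a nutrient transporter gene, 4 held a summit (19.0%; 2.65 expected by length): AAC1-FET3, beside the iron transport oxidase (3.04-fold), PUT4-CIN1, beside the proline permease (2.85), ATO3-EFT2 (2.37) and AGP1-KCC4, beside an amino acid permease (2.15). ATO3-EFT2 is also the 1 region with a summit among 14 beside a translation factor gene (1.12 expected), EFT2 encoding elongation factor 2, and its summit lay nearer to ATO3 (401 bp) than to EFT2 (798 bp). Of 19 cell wall regions 2 held a summit where 3.18 were expected, HPF1-ZPS1 (2.89-fold) and FPT1-PRY2 (2.68). Of 11 chaperone regions also 2 did, where 0.872 were expected, CPR1-RPA14, beside cyclophilin A (3.53-fold), and SSC1-TAH11, beside the mitochondrial Hsp70 (2.45). Of 8 regions beside genes of glycolysis and ethanol fermentation only PDC6-CTT1 did (2.25-fold; 1.12 expected), with the summit 382 bp from the catalase gene CTT1 and 1271 bp from the pyruvate decarboxylase gene PDC6. Of 5 beside glycine-rich RNA-binding proteins only TRM11-HRP1 did (2.70-fold; 0.334 expected). Over all lists together 28 of 149 regions held a summit (18.8%; 16.4 expected, a ratio of 1.71), and 38 of the 1243 outside them (3.06%; 87.4 expected, a ratio of 0.435). Listed regions were longer, with a median of 794 bp against 460 bp, and the median folds were 2.69 and 3.44. Of the 28, 17 were beside a ribosomal protein gene, and the 81 listed regions without such a gene held 11 where 9.44 were expected by length, a ratio of 1.16.

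**Figure D4:**
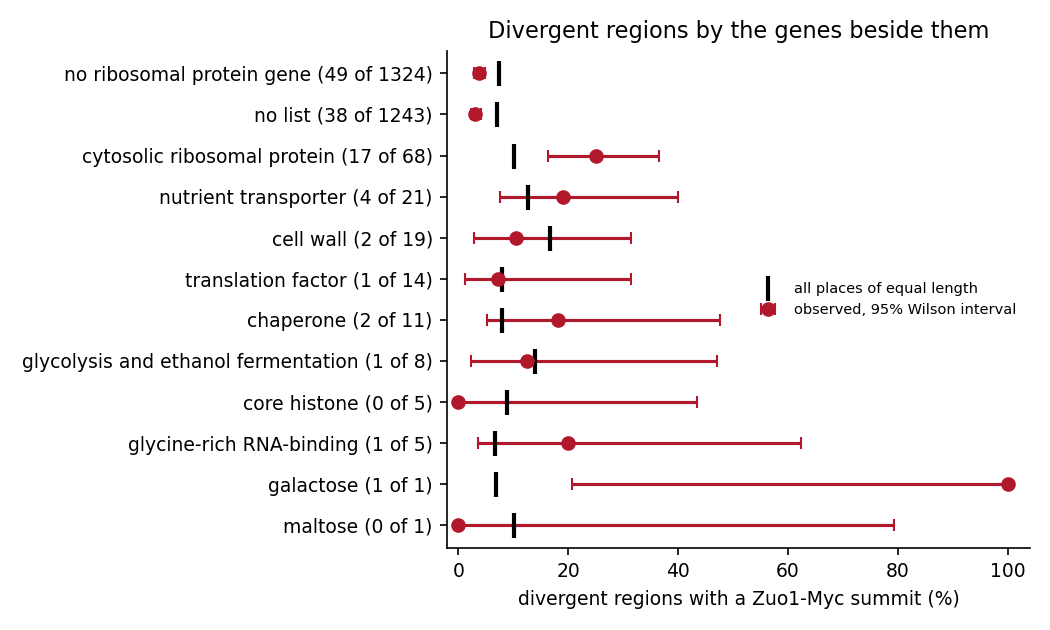
Share of divergent regions with a Zuo1-Myc summit (horizontal axis, percent) for each gene list, with the counts beside the names. Red points are observed shares with 95% Wilson intervals and black bars the share of all places of equal length; the ribosomal protein list (17 of 68) lies right of its black bar with its whole interval, and the regions in no list (38 of 1243) lie left of theirs.

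Among the classic divergent promoters examined, only GAL10-GAL1 held a summit. GAL10-GAL1 (chrII:278353-279020), which drives the galactokinase and epimerase genes of galactose use, held a summit of 3.35-fold with 117 IP fragments over a background of 34.2, ranked 366 among the nuclear peaks. The summit lay almost in the centre, 332 bp from the start codon of GAL10 and 337 bp from that of GAL1, and 63 bp from the nearest of the 3 Gal4 matches printed above. The antisense RNA gene YNCB0008W also covers this summit. The divergent maltose pair MAL11-MAL12 (785 bp) held none, and the nearest summit was 7786 bp away. By length 0.101 was expected there and 0.0679 in GAL10-GAL1, so that a count of 0 in the maltose region says little. The carbon source of the culture is not given in the labels.

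Of the 4 divergent pairs of core histone genes, which package DNA and are transcribed in S phase, none held a summit. The nearest summit was 294 bp outside the region of HTB1-HTA1 (1.96-fold), 228 bp outside HTA2-HTB2 (1.88), 487 bp outside HHF1-HHT1 (2.66) and 243 bp outside HHT2-HHF2 (1.90). In 3 of the 4 pairs there was a summit in the coding span of 1 of the 2 genes. Only the region of HTB1-HTA1 was touched by a peak at all. All 5 divergent regions beside a core histone gene together had 0.443 expected by length, so that a count of 0 says little.

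Non-coding RNA genes lay in 4 of the 66 regions with a summit (6.06%, interval 2.38 to 14.6%) and in 14 of the 1326 without (1.06%, 0.630 to 1.76%). SEC59-BUD22 holds a cluster of 7 snoRNA genes, SNR72 to SNR78, whose RNAs guide the methylation of ribosomal RNA. Its summit of 4.05-fold with 164 fragments lay between SNR75 and SNR74, in a window of 29.7% GC, printed above. FSF1-YTM1, with the snoRNA gene SNR8, had 2.70-fold at the same GC content of 29.7%, and NOC4-ASN1, with SNR45, had 2.13-fold; neither summit lay inside the snoRNA gene. Replication origins (ARS) lay in 4 regions with a summit (6.06%, interval 2.38 to 14.6%) and in 37 without (2.79%, 2.03 to 3.82%), and these intervals overlap. Regions with a summit were longer (median 962 bp against 476.5 bp), and the shares with an RNA gene or an origin were not adjusted for length.

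No region held more than 2 summits, and 6 regions tied at that number. YFL064C-COS4, YML133C-COS3, YOR394C-A-YRF1-8 and YER188C-A-YER189W were among the terminal regions. On the inner chromosomes, ROX3-RPL32 held summits of 3.41- and 2.36-fold, the weaker one 216 bp from RPL32, and HPF1-ZPS1 held 2.89- and 2.15-fold upstream of the mannoprotein gene HPF1, at 306 and 1063 bp.

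Genes beside a region with a summit had a summit in their own coding span more often than others. This held for 46 of 132 such genes (34.8%), beside 364 of 2652 genes next to regions without a summit (13.7%) and 13.8% of all 6008 nuclear coding sequences. By region, 36 of 66 (54.5%) had at least 1 such gene, against 329 of 1326 (24.8%). Among the regions beside ribosomal protein genes alone the order was the reverse, but only 17 of these 68 regions held an intergenic summit.

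The regions left out by the rule differed most. Of 111 divergent regions of 100 bp or more with a tRNA gene, LTR, Ty element, centromere or rDNA, 73 held a summit, among them 67 of the 86 with a tRNA gene. With these regions kept, 139 of 1503 divergent regions (9.25%) held a summit, and the ratio to places of equal length was 1.13. The length limit had no such effect: none of the 26 divergent intervals under 100 bp held a summit, and neither did the regions next to the limit, YAL065C-YAL064W-B and YBR298C-A-MAL32 (94 bp each, left out) and YDR524C-B-API2 (106 bp) and YKL183C-A-LOT5 (113 bp), which were kept.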

How the data were processed

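Per the labels and the study's methods, the authors aligned reads to sacCer3 with Bowtie2 and called narrow peaks with MACS2 at a q-value of 0.05, all libraries in 1 run. The printed MACS2 command names IP and input files on both sides, so that IP as treatment was assumed here. The deposited list holds, for each peak, a fold enrichment (the IP to background ratio), p-value and q-value as −log10, a score and the summit, all computed by the authors with MACS2. Columns were read by position, since the header is that of another table. Fragment counts were recovered from fold and p-value, and came out whole within 0.05 for all 1594 peaks. The number expected was the exact share of all places of equal length on the chromosome, tRNA genes and repeats included unless stated. Python 3.11.15, NumPy 2.4.6, SciPy 1.17.1, mpmath 1.4.1 and matplotlib 3.10.9 were used, and the scripts were tested on simulated data.

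Members, gene lists and settings were chosen with earlier results of these data known. The rule for named genes takes the genes beside the 15 regions of largest fold, the histone, galactose and maltose pairs, up to 4 regions per gene list, the 3 longest regions, those with most summits (6 tied), and up to 6 with a non-coding RNA gene. RPS22A-RPL39, RPL13B-RPS16A, MTR2-ASH1 and MFB1-GTB1 were named after their values were seen. Intervals cover counting error only. The alternatives were other limits on fold, q-value, peak length and region length, other overlaps, regions kept or left out, other reference places and other motif definitions.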

Additional observations from a re-analysis of the deposited data

How the results depend on the processing

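Of 78 recomputed values, 59 stayed inside the 95% interval of the reported one. Some of them could not move. Every divergent summit had a q-value below 0.001, so that limit left all divergent counts as they were. No region under 445 bp held a summit, so the limits on region length left the median fold, the share near start codons and the share with a G4 motif unchanged. With peaks of 3-fold or more, the share of regions with a summit was 2.51%, the ratio to places of equal length 1.11, the density 4.17 per 100 kb and 1.49 times that of tandem regions, the share in the gene lists 6.71% and the share with a G4 motif 60%. When 1 bp of a peak counted, the share was 9.48%, the median fold 3.43, the share in the gene lists 34.9% and the share with a G4 motif 25%. With a minimum length of 300 bp the share was 6.56%. With tRNA genes and repeats kept, the share was 9.25%, the ratio 1.13, the density 14.4, the median fold 2.57, the share of summits within 250 bp of a start codon 28.6% and the share with a G4 motif 22.3%. With loops of up to 7 bases 9.09% of regions with a summit held a G4 motif, and with tracts of 2 G 77.3%. Places free of tRNA genes and repeats gave a ratio of 0.795. The ratio was therefore below 1 in 11 of 13 alternatives, and the exceptions were strong peaks alone and the excluded features kept.

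No paired analysis was possible because the peak list, the only file used here, pools the libraries, and for the same reason no replicate was left out. Alignments of single libraries were not used here. The spread between cultures is unknown, and without a strain lacking the tag the share of peaks that arises without Zuo1-Myc is unknown.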
